A study of Saccharomyces cerevisiae S288C with 4 samples.

Results

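The genes described here encode the translation initiation, elongation and termination factors of budding yeast, with their regulators and enzymes that modify them. They were chosen by name from the deposited gene table, and the chosen names matched 47 of its 6396 genes. The mutant, *tho2Δ* (strain FY254), carries KanMX4 in place of *THO2*, a subunit gene of the THO complex that packages nascent mRNA for export. The WT strain was BY4741, and both are MATa haploids that carry the same deletions in *URA3*, *LEU2*, *HIS3* and *MET15*. Cells were grown in YPD at 30 °C to mid-log phase, and total RNA was sequenced in 2 libraries per strain, numbered 3 and 4 in the labels, with 31417222 and 36989697 counts in the *tho2Δ* libraries and 33543267 and 32401027 counts in the WT libraries. Whether the duplicates were separate cultures is not stated, and the p-values then reflect no more than the spread between these RNA samples, which may be technical. The question was which transcripts of the translation machinery differ when Tho2 is lost, and at which step of translation they act.

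Translation begins when the cap-binding complex eIF4F and the poly(A)-binding protein prepare an mRNA, and when eIF2 brings the initiator tRNA to a small ribosomal subunit held by eIF3, eIF1 and eIF1A. eIF2B recharges eIF2 with GTP, and the kinase Gcn2 slows this exchange when amino acids run out, which raises the translation of *GCN4* mRNA. During elongation, eEF1A delivers aminoacyl-tRNA, eEF2 moves the ribosome and eEF3, an ATPase of fungi, clears the exit site. eIF5A, the carrier of the modified lysine hypusine, assists difficult peptide bonds, while Sup45 and Sup35 end the chain and Rli1 splits the ribosome for a new round. In growing yeast these factors are made in large amounts, and the elongation factor genes are among the most highly expressed genes of the cell.

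Levels are given as CPM, read counts on a common library size scaled by TMM, a factor that aligns the bulk of the genes between libraries, and changes as log2 fold changes of *tho2Δ* over WT ± their standard error (SE). Levels of different genes are compared only in the authors' TPM, which corrects for gene length. *THO2* itself had 1 count in each *tho2Δ* library, against 4011 and 2457 counts in WT replicates 3 and 4. Markers of the a mating type summed to 2035 to 2375 CPM in *tho2Δ* and 1915 to 2159 CPM in WT, and those of the alpha type to at most 6.49 CPM in any library. The WT libraries stood further apart than the *tho2Δ* libraries, with a median absolute difference per gene of 0.244 and 0.0919 on the log2 scale, and WT replicate 4 had a TMM factor of 0.723, against 1.003 to 1.18 in the others. Protein-coding genes took 74.4% and 75.2% of counts in *tho2Δ*, against 82.3% and 80.5% in WT (Wilson 95% intervals within ± 0.0153 percentage points, counting error only). With protein-coding genes alone, edgeR called 33 of the 47 genes lower at an adjusted p below 0.05, against 32 with all genes. The noncoding RNA *SCR1* took 13.7% of counts in each *tho2Δ* library, against 8.46% and 7.71% in WT replicates 3 and 4. Any other part of the protein-coding share in the results was not tested. With library totals in place of TMM, the median log2 fold change of all genes was 0.45, against 0.01 with TMM, so every direction below is relative to the TMM scale. The split of calls over all genes then moved to 1207 higher and 303 lower, against 1110 higher and 1127 lower with TMM.

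On the TMM scale, between 2 and 7 genes of each step of translation were lower in *tho2Δ*. All 47 genes passed edgeR's filter on low counts, and 32 of them passed as lower with an adjusted p below 0.05, 1 was higher (*HEF3*) and 14 did not pass. Over all 5890 genes tested, 19.1% were lower and 18.8% higher. As in any bulk culture, fewer cells expressing a gene and less of its RNA per cell cannot be told apart. The median gene of the 47 had a log2 fold change of -0.73, or 1.65-fold lower, against a median of 0.01 over all genes. On the TMM scale, both *tho2Δ* libraries lay below both WT libraries in 42 of the 47 genes, as in 36.3% of all genes tested. In 1 (*HEF3*) both lay above, as in 38.6%, and in 4 genes (*SUI1*, *GCD1*, *CAM1* and *GCN2*) the strains overlapped. The split was not the same in the authors' TPM, where *TIF1*, for instance, overlapped (913 and 920 TPM in *tho2Δ*, against 1345 and 826 TPM in WT). Genes that passed as lower with TMM but overlapped in TPM were *TIF2*, *CDC33*, *PAB1*, *TIF35*, *TIF5*, *SUI2*, *GCD7*, *GCD2* and *GCD6*. *TIF4632*, *TIF34*, *SUI1* and *GCD1*, which had not passed, overlapped in TPM as well. *CAM1* (222 and 264 TPM in *tho2Δ*, against 163 and 191 TPM in WT) lay higher there in both *tho2Δ* libraries. So did *GCN2* (19.2 and 18.4 TPM in *tho2Δ*, against 15.8 and 12.7 TPM in WT). Summed over the 47 genes, the authors' TPM came to 29267 and 30572 TPM in *tho2Δ*, against 41535 and 53521 TPM in WT, most of it from the elongation factors. These counts depend on the scale: with library totals 10 of the 47 were lower, beside 5.14% of all genes, and the median became -0.28, which is still below the median of all genes on that scale (0.45). Without *tho2Δ* replicate 3 or without *tho2Δ* replicate 4, when the spread came from the WT libraries alone, 2 genes were lower (*FUN12* and *LIA1*), a share close to the 3.98% and 3.37% of all genes.

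**Figure D1:**
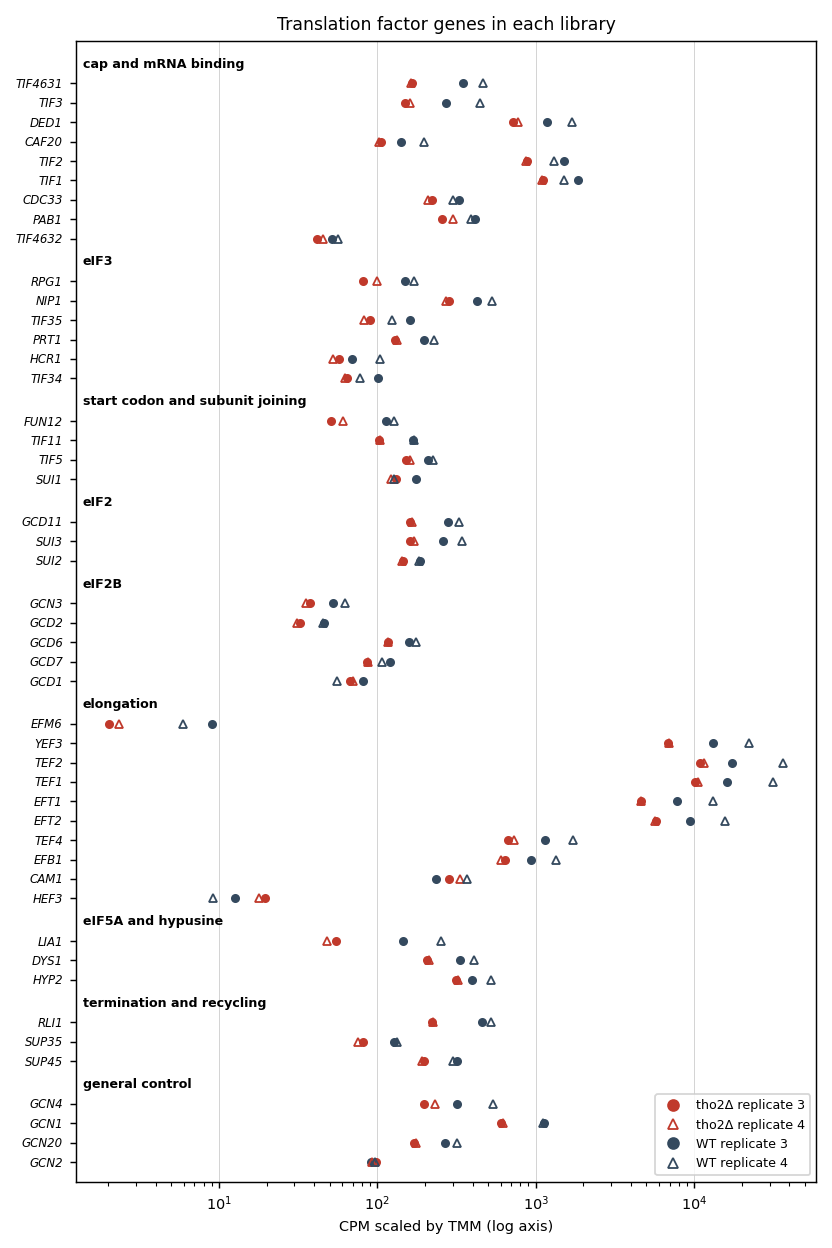
TMM-scaled CPM of each of the 47 genes (log axis) in the 2 *tho2Δ* libraries (red) and the 2 WT libraries (dark blue), grouped by step, with filled circles for replicate 3 and open triangles for replicate 4. The red symbols lie left of the blue ones in 42 genes and right of them in *HEF3*, and the blue pairs are widest apart in the elongation factors.

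Among the genes that bind the cap and the mRNA, 7 of 9 were lower, with a median log2 fold change of -0.67. The largest difference was in *TIF4631*, the major gene for the scaffold eIF4G (chromosome VII, 824059 to 826917, plus strand, build R64). *TIF4631* had 166 and 163 CPM in *tho2Δ* replicates 3 and 4, against 349 and 467 CPM in WT replicates 3 and 4, a difference of -1.31 ± 0.17 on the log2 scale (edgeR, adjusted p = 0.00436). Its paralog *TIF4632*, the minor eIF4G gene, had 41.6 and 45.3 CPM in *tho2Δ*, against 51.7 and 56.8 CPM in WT, a difference of -0.32 ± 0.12 on the log2 scale (edgeR, adjusted p = 0.0878). In CPM both *tho2Δ* values lay below both WT values in either eIF4G gene, but *TIF4632* did not pass the test. It had a log2 fold change of 0.14 with library totals. In TPM the strains overlapped in *TIF4632* (14.9 and 16.4 TPM in *tho2Δ*, against 16.2 and 13.4 TPM in WT).

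*TIF3*, the eIF4B gene, was lower (-1.203 on the log2 scale), and so was *DED1*, a helicase that unwinds leader sequences (-0.94). *CAF20*, a repressor that binds eIF4E, was lower (-0.70), as was *CDC33*, eIF4E itself (-0.55). *PAB1*, the poly(A)-binding protein, was lower too (-0.54). The repressor and the cap-binding protein it targets were thus both lower. *TIF3* and *TIF4631* were also lower with library totals (adjusted p = 0.0404 and 0.0195 from edgeR), whereas the other calls of this step were lost on that scale.

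*TIF1* and *TIF2* encode the same helicase, eIF4A. *TIF1* had 1106 and 1098 CPM in *tho2Δ*, against 1852 and 1515 CPM in WT, a difference of -0.61 ± 0.20 on the log2 scale (edgeR, adjusted p = 0.061). *TIF2* had 882 and 870.1 CPM in *tho2Δ*, against 1499 and 1296 CPM in WT, a difference of -0.67 ± 0.18 on the log2 scale (edgeR, adjusted p = 0.0349). The coding sequences differ at only 6 of 1188 positions and hold an identical stretch of 644 bases, so the split of reads between them is uncertain, and the pass of one and the miss of the other are not a difference between them. As the most different 60 bases show, where capitals mark the differing positions, a read from the coding sequence could be assigned only where it covered such a position:
TIF1 (chromosome XI, 555183 to 555242, plus strand): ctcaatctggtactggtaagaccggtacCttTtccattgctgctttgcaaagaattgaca
TIF2 (chromosome X, 154436 to 154495, minus strand): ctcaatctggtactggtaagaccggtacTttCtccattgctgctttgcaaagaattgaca
With both genes added into 1 feature, eIF4A had 1988 and 1968 CPM in *tho2Δ*, against 3351 and 2812 CPM in WT (difference of -0.64 ± 0.24 on the log2 scale, edgeR adjusted p = 0.0832). The summed value, which does not rest on that split, did not pass the test.

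Of the 6 genes for eIF3, the scaffold that holds the small subunit, 4 were lower, with a median log2 fold change of -0.71 and a narrow range from -0.82 to -0.50. The lowest was *RPG1*, the eIF3a subunit, with 81.5 and 100.1 CPM in *tho2Δ*, against 149 and 171 CPM in WT, a difference of -0.82 ± 0.14 on the log2 scale (edgeR, adjusted p = 0.01). *NIP1* (eIF3c), *TIF35* (eIF3g) and *PRT1* (eIF3b) were lower, at -0.78, -0.73 and -0.69. *TIF34* (eIF3i) had 63.97 and 62.4 CPM in *tho2Δ*, against 102 and 77.4 CPM in WT, a difference of -0.50 ± 0.15 on the log2 scale (edgeR, adjusted p = 0.0512). *HCR1*, the loosely held eIF3j, missed the threshold at -0.65. On the TMM scale every *tho2Δ* value lay below every WT value in all 6 genes, as in 36.3% of all genes tested. In the authors' TPM the strains overlapped in *TIF34* (60.1 and 59.5 TPM in *tho2Δ*, against 84.1 and 48.0 TPM in WT). *TIF35* overlapped there too (106 and 99.9 TPM in *tho2Δ*, against 168 and 97.6 TPM in WT), while the other eIF3 genes stayed lower. None of the 6 passed with library totals, on which their median was -0.27 and 5.14% of all genes were lower.

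For start codon selection and subunit joining, 3 of 4 genes were lower. *FUN12*, the GTPase eIF5B that joins the subunits, had 50.7 and 60.6 CPM in *tho2Δ*, against 114 and 127 CPM in WT, a difference of -1.11 ± 0.13 on the log2 scale (edgeR, adjusted p = 0.00339). It lies at chromosome I, 76427 to 79435, plus strand, and with *LIA1* it kept its call with either *tho2Δ* library alone (edgeR adjusted p = 0.0436 for replicate 4 alone and 0.0253 for replicate 3 alone), but not with library totals (edgeR, 0.0765). *TIF11* (eIF1A) and *TIF5* (eIF5, which stimulates GTP hydrolysis by eIF2) were lower, at -0.72 and -0.46. *SUI1*, the eIF1 gene, had 132 and 122 CPM in *tho2Δ*, against 176 and 128 CPM in WT, a difference of -0.26 ± 0.17 on the log2 scale (edgeR, adjusted p = 0.277). The strains overlapped in *SUI1* since WT replicate 4 lay between the *tho2Δ* libraries, and its sign turned with library totals (0.15). Summed over the 4 genes, the authors' TPM came to 753 and 747 TPM in *tho2Δ*, against 958 and 639.8 TPM in WT, where the strains overlapped.

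The genes of eIF2 and of its exchange factor eIF2B were lower in 7 of 8 cases on the TMM scale, beside 19.1% of all genes. With library totals (5.14% of all genes) or limma on TPM (6.05% and 5.82% at pseudocounts of 1 and 0.1), 0 of 8 were lower. *GCD11*, the GTP-binding gamma subunit of eIF2, had 162 and 166 CPM in *tho2Δ*, against 281 and 329 CPM in WT, a difference of -0.90 ± 0.13 on the log2 scale (edgeR, adjusted p = 0.0054). *SUI3*, the beta subunit, was lower (-0.86). *SUI2*, the alpha subunit that Gcn2 phosphorylates, had 146 and 144 CPM in *tho2Δ*, against 186 and 183 CPM in WT, a difference of -0.35 ± 0.10 on the log2 scale (edgeR, adjusted p = 0.0404). *SUI2* had the smallest difference of the 3 eIF2 genes, and its sign turned with library totals (log2 fold change 0.094).

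In eIF2B, *GCN3*, the regulatory alpha subunit, had 37.8 and 35.6 CPM in *tho2Δ*, against 52.7 and 62.6 CPM in WT, a difference of -0.65 ± 0.13 on the log2 scale (edgeR, adjusted p = 0.016). *GCD2* (delta), *GCD6* (the catalytic epsilon subunit) and *GCD7* (beta) were lower, at -0.52, -0.51 and -0.39, and the sign of *GCD7* turned with library totals (0.043). *GCD1*, the gamma subunit that pairs with Gcd6, had 67.1 and 69.8 CPM in *tho2Δ*, against 81.7 and 55.9 CPM in WT, a difference of -0.0084 ± 0.19 on the log2 scale (edgeR, adjusted p = 0.977). The WT libraries of *GCD1* lay on either side of the *tho2Δ* libraries, and it passed as higher without WT replicate 3 (0.27, edgeR adjusted p = 0.0356) and as lower without WT replicate 4 (-0.26, edgeR adjusted p = 0.0282). The authors' TPM summed over the 5 eIF2B subunits came to 221 and 225 TPM in *tho2Δ*, against 264 and 193 TPM in WT, so on that scale the strains overlapped.

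The elongation factors held the highest levels and the largest spread. Their median log2 fold change was -1.16, yet 3 of 10 were lower, 1 was higher and 6 did not pass. In mean TPM, *TEF2* and *TEF1* led the 47 genes in both strains, followed by *YEF3*, *EFT2* and *EFT1*. *EFT2* averaged 2231 TPM and *YEF3* 2166 TPM in *tho2Δ*, whereas in WT *EFT2* averaged 3611 TPM and *YEF3* 4111 TPM, so the order of these means, which were not tested against each other, differed. Summed over the step, TPM came to 22922 and 24081 TPM in *tho2Δ*, against 32794 and 46404 TPM in WT. The *tho2Δ* libraries were close to each other and lay below both WT libraries, which were themselves far apart.

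*TEF1* and *TEF2*, which encode the same eEF1A protein, showed this most plainly. *TEF1* had 10070.4 and 10652 CPM in *tho2Δ* replicates 3 and 4, against 16187 and 31583 CPM in WT replicates 3 and 4. *TEF2* had 10972 and 11489 CPM in *tho2Δ*, against 17336 and 36283 CPM in WT. WT replicate 4 thus lay 0.96 and 1.07 above WT replicate 3 on the log2 scale, and the differences between strains, -1.205 ± 0.60 and -1.26 ± 0.64, missed the threshold (edgeR adjusted p = 0.166 and 0.173). Their coding sequences differ at 2 of 1377 positions, 1 of which is in capitals in these 60 bases, so reads of either gene can be counted for the other:
TEF1 (chromosome XVI, 701325 to 701384, plus strand): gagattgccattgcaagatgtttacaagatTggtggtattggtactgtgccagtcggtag
TEF2 (chromosome II, 478402 to 478461, plus strand): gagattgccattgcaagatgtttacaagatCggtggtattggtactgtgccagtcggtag
The sum of both genes was 21042 and 22141 CPM in *tho2Δ*, against 33523 and 67866 CPM in WT (difference of -1.23 ± 0.80 on the log2 scale, edgeR adjusted p = 0.268). With library totals the same sum passed the test (-0.70, edgeR adjusted p = 0.0274), as it did without WT replicate 4 (-0.64).

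The other abundant elongation factors had the same shape. *EFT1* and *EFT2*, twin genes for eEF2 that differ at 4 of 2529 coding positions, summed to 10349.5 and 10273 CPM in *tho2Δ*, against 17200.1 and 28894 CPM in WT (difference of -1.16 ± 0.56 on the log2 scale, edgeR adjusted p = 0.153). Each alone missed the threshold as well, at -1.19 for *EFT1* and -1.13 for *EFT2*. *YEF3*, the main eEF3 gene, had 6821 and 6918 CPM in *tho2Δ*, against 13262 and 22127 CPM in WT, a difference of -1.37 ± 0.50 on the log2 scale (edgeR, adjusted p = 0.0825). *YEF3*, *EFT1*, *EFT2*, *TEF1* and *TEF2* all passed with library totals (adjusted p between 0.00735 and 0.0324 from edgeR) and with DESeq2. For these 5 genes the call therefore depended on the scaling and the tool, while both *tho2Δ* values stayed below both WT values.

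*HEF3*, the weakly expressed paralog of *YEF3*, was the only gene of the 47 that passed as higher with TMM on all 4 libraries. With limma on TPM it did not pass. It lies at chromosome XIV, 606319 to 609453, plus strand, and had 19.6 and 18.0 CPM in *tho2Δ*, against 12.6 and 9.14 CPM in WT, a difference of 0.79 ± 0.19 on the log2 scale (edgeR, adjusted p = 0.0249). Its level remained far below that of *YEF3*: in TPM, *HEF3* had 6.14 and 5.71 TPM in *tho2Δ*, against 3.46 and 1.89 TPM in WT, while *YEF3* had 2135 and 2197 TPM in *tho2Δ*, against 3649.9 and 4572 TPM in WT. The 2 genes share 74.5% of their coding positions, with no identical stretch over 41 bases. *HEF3* passed with library totals (1.201) but not with either *tho2Δ* library alone (edgeR adjusted p = 0.164 with replicate 4 and 0.117 with replicate 3).

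The exchange factor eEF1B, which recharges eEF1A, split between paralogs. *EFB1*, its catalytic subunit, was lower (-0.87). *TEF4*, one of the gamma subunit genes, had 670.2 and 726 CPM in *tho2Δ*, against 1143 and 1730.2 CPM in WT, a difference of -1.04 ± 0.25 on the log2 scale (edgeR, adjusted p = 0.0255). *CAM1*, the other gamma subunit gene, had 283 and 331 CPM in *tho2Δ*, against 236 and 369 CPM in WT, a difference of 0.021 ± 0.23 on the log2 scale (edgeR, adjusted p = 0.953). *TEF4* was lower in both *tho2Δ* libraries, whereas *CAM1* overlapped between strains and passed as lower without WT replicate 3 (-0.29, edgeR adjusted p = 0.0496) and as higher without WT replicate 4 (0.37, edgeR adjusted p = 0.0309). The calls of *EFB1* and *TEF4* were lost with library totals (edgeR adjusted p = 0.138 and 0.0532). *EFB1* and *TEF4* carry snoRNA genes in their introns, but these had at most 340 counts in any library, against at least 23693 counts for the host genes. *EFM6*, a methyltransferase of eEF1A (chromosome XIV, 587107 to 587847, minus strand), is one of the least expressed of the 47 genes. It had 2.03 and 2.33 CPM in *tho2Δ*, against 9.07 and 5.94 CPM in WT, from 75 and 101 counts in *tho2Δ* and 305 and 139 counts in WT, a difference of -1.79 ± 0.28 on the log2 scale (edgeR, adjusted p = 0.00711).

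**Figure D2:**
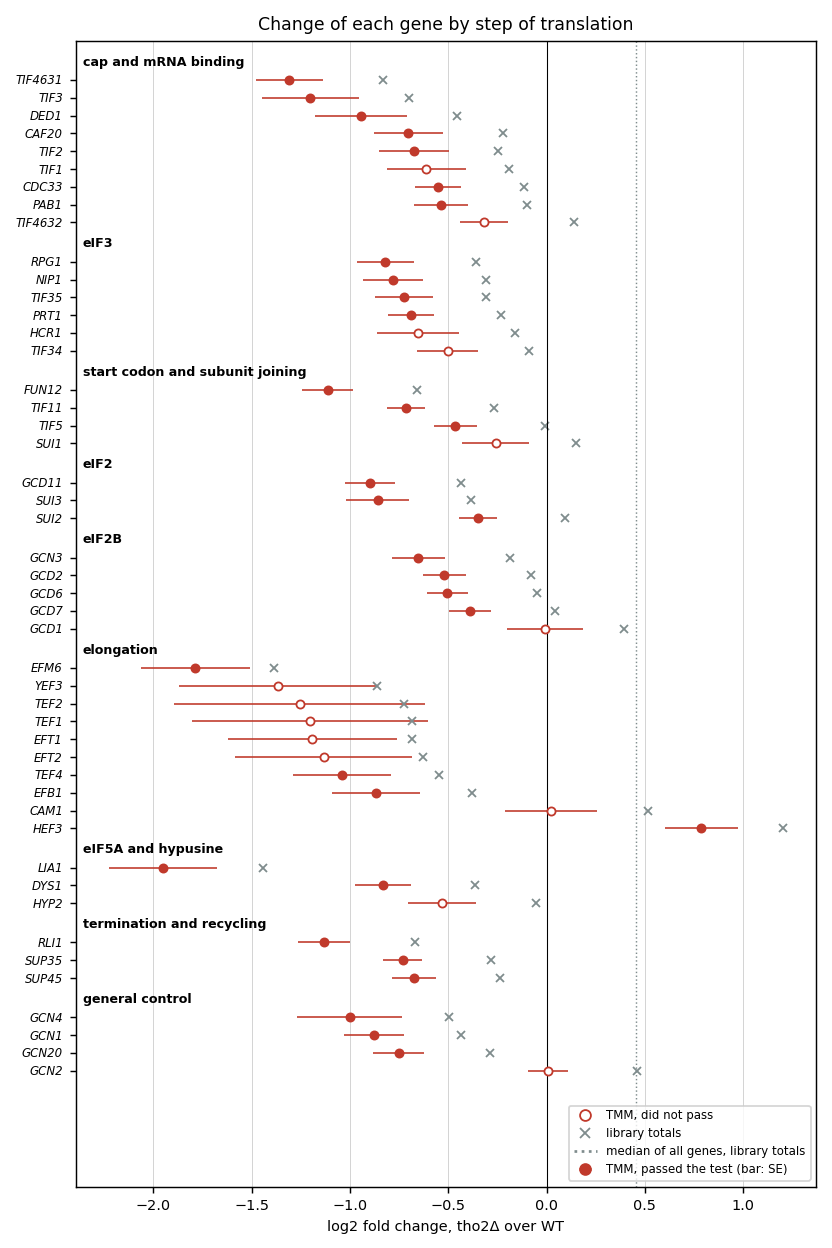
log2 fold change of each gene (*tho2Δ* over WT) by step, with the TMM scale as red points (filled where the gene passed the test, bars for SE) and library totals as gray crosses, beside the median of all genes on library totals (dotted line at 0.45). *LIA1* is lowest at -1.95 and *HEF3* highest at 0.79, and the crosses of 44 genes lie left of the dotted line.

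Genes of eIF5A and its hypusine modification gave the lowest value of all. *LIA1*, the hydroxylase that completes hypusine (chromosome X, 569621 to 570598, minus strand), had 55.1 and 48.1 CPM in *tho2Δ* replicates 3 and 4, against 146 and 253 CPM in WT replicates 3 and 4, a difference of -1.95 ± 0.27 on the log2 scale (edgeR, adjusted p = 0.00529). The *tho2Δ* libraries were close together and both far below the WT libraries. *LIA1* was the only one of the 33 called genes whose call held under all 13 other settings, with log2 fold changes from -2.32 to -1.44. *DYS1*, the synthase for the preceding step, was lower (-0.83). *HYP2*, the main eIF5A gene, had 314 and 322 CPM in *tho2Δ*, against 394 and 526 CPM in WT, a difference of -0.53 ± 0.17 on the log2 scale (edgeR, adjusted p = 0.0613). Both *tho2Δ* values of *HYP2* lay below both WT values, but it did not pass the test.

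eIF5A has a second gene, *ANB1*, which is known for expression at low oxygen and is not one of the 47. *ANB1* had 26.7 and 32.0 CPM in *tho2Δ*, against 110.4 and 297 CPM in WT, a difference of -2.79 ± 0.47 on the log2 scale (edgeR, adjusted p = 0.00914). Its share of the pair's TPM was 7.83% and 9.04% in *tho2Δ*, against 21.9% and 36.1% in WT. The coding sequences share 90.9% of positions, with no identical stretch over 43 bases, so reads can be told apart better than for *TIF1* and *TIF2*. The most different 60 bases are shown with differing positions in capitals:
HYP2 (chromosome V, 85961 to 86020, plus strand): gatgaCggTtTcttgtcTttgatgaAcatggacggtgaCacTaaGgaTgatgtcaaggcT
ANB1 (chromosome X, 525037 to 525096, minus strand): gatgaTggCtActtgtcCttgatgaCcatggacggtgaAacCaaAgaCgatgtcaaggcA
The sum of both eIF5A genes was 341 and 354 CPM in *tho2Δ*, against 505 and 822 CPM in WT (difference of -0.93 ± 0.25 on the log2 scale, edgeR adjusted p = 0.036). The sum was thus lower where *HYP2* alone did not pass, but its call was lost with library totals (edgeR adjusted p = 0.127) and with either *tho2Δ* library alone (edgeR adjusted p = 0.228 with replicate 4 and 0.212 with replicate 3).

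All 3 genes of termination and recycling were lower. *RLI1*, the iron-sulfur ATPase that splits the ribosome (chromosome IV, 626708 to 628534, minus strand), had 222 and 223 CPM in *tho2Δ*, against 456 and 522 CPM in WT, a difference of -1.13 ± 0.13 on the log2 scale (edgeR, adjusted p = 0.00333). *SUP35* (eRF3) was lower (-0.73). *SUP45* (eRF1) had 198 and 192 CPM in *tho2Δ*, against 321 and 301 CPM in WT, a difference of -0.67 ± 0.11 on the log2 scale (edgeR, adjusted p = 0.00852). The *tho2Δ* values lay below the WT values in each of these genes, and *RLI1* was also lower with library totals (adjusted p = 0.0424 from edgeR).

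In the general control pathway, the transcription factor gene and the ribosome-bound activators of the kinase were lower, and the kinase gene did not pass. *GCN4* had 197 and 232 CPM in *tho2Δ*, against 319 and 539 CPM in WT, a difference of -1.001 ± 0.27 on the log2 scale (edgeR, adjusted p = 0.0354). The WT libraries of *GCN4* differed by 0.76 on the log2 scale, and both lay above the *tho2Δ* libraries. *GCN1* and *GCN20*, which carry the signal to Gcn2, were lower, at -0.88 and -0.75. No gene of the pathway passed with library totals, on which 5.14% of all genes were lower. *GCN2* had 97.6 and 92.0 CPM in *tho2Δ*, against 91.4 and 97.3 CPM in WT, a difference of 0.0072 ± 0.10 on the log2 scale (edgeR, adjusted p = 0.962). The *GCN2* values of the strains overlapped on the TMM scale, and its interval of the estimate plus or minus 1 SE spanned 0. The levels are those of mRNA, and translation of *GCN4* mRNA was not measured here.

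The share of each paralog within its pair could be read per library without TMM, since both genes come from the same library. *TIF4632* made up 20.7% and 22.4% in *tho2Δ*, against 13.4% and 11.2% in WT. *CAM1* made up 29.51% and 31.2% in *tho2Δ*, against 17.0% and 17.5% in WT. *HEF3* made up 0.287% and 0.259% in *tho2Δ*, against 0.0946% and 0.0412% in WT. In each of these pairs the minor gene held a larger share in both *tho2Δ* libraries than in either WT library, whereas for *ANB1* the order was the other way. Of the near-identical pairs, whose split of reads is uncertain, *TEF2* made up 52.1% and 51.9% in *tho2Δ*, against 51.7% and 53.5% in WT, where the strains overlapped. *TIF2* made up 44.4% and 44.2% in *tho2Δ*, against 44.7% and 46.1% in WT, and *EFT2* 55.6% and 55.1% in *tho2Δ*, against 54.8% and 54.1% in WT, without overlap. With 2 libraries against 2, the exact two-sided permutation test cannot go below p = 0.333, so these shares are a description.

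**Figure D3:**
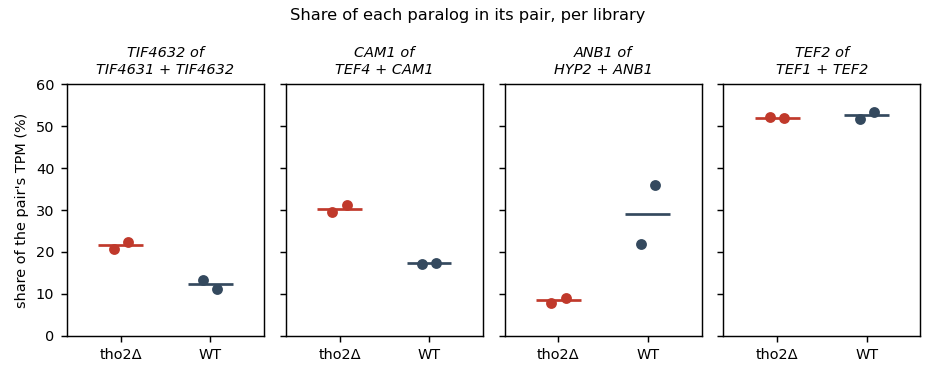
Share of the second gene of each pair in the pair's summed TPM (%), with a point per library and a line for the mean, *tho2Δ* in red and WT in dark blue. *TIF4632* and *CAM1* hold larger shares in *tho2Δ* (20.7% to 31.2% over both pairs) than in WT (11.2% to 17.5%), *ANB1* a smaller one, and *TEF2* close to the same.

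The promoters of the genes were searched for short letter strings, from 250 bases before to 50 bases after the start codon, on both strands, in build R64. The string AAAATTTT, the core of the RRPE element known from ribosome assembly genes and its own reverse complement, was in 27 of the 47 windows (57.4%), beside 9.02% of 5976 protein-coding genes. GATGAG, the core of the PAC element, was in 11 of 47 (23.4%), beside 20.4% of all. Both strings were in 8 of the 47 windows (17.0%), beside 4.56% of all tested genes. A form of the Rap1 site was in 1 window (*EFM6*) and TGACTCA, the Gcn4 site, in 1 (*GCN2*), beside 1.04% and 2.73% of all windows. Sites farther upstream, or with other letters, were not searched. Some matches lay only in the coding part of the window: that of *GCN2*, the RRPE core of *PRT1* and the PAC core of *CAF20*. These began 7, 4 and 18 bases past the first base of the start codon. The RRPE core stood in at least 1 gene of every step, and in every gene of eIF2 and of termination and recycling.

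Within the 47, 19 of 27 genes with the RRPE core were lower, with a median log2 fold change of -0.82, and 13 of 20 without it, with a median of -0.65. Over all tested genes, 55.1% of 528 with the string and 15.8% of 5216 without it were lower. On the TMM scale, most of the translation factor genes were lower both with and without the string. Whether the string has a part in this was not tested. A match is a string of letters and not a shown binding site. The windows of *LIA1*, the lowest of the 47, of *RLI1* and *TIF4631*, called on both scales, and of *HEF3*, the gene called higher, are printed with the matches in capitals:
LIA1 (chromosome X, 570549 to 570848, minus strand): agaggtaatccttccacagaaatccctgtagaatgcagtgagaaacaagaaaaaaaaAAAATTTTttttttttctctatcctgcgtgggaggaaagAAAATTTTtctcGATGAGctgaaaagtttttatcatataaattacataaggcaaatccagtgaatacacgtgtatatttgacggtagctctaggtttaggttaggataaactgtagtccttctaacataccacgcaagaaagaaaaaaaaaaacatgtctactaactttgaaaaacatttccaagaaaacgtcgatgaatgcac
RLI1 (chromosome IV, 628485 to 628784, minus strand): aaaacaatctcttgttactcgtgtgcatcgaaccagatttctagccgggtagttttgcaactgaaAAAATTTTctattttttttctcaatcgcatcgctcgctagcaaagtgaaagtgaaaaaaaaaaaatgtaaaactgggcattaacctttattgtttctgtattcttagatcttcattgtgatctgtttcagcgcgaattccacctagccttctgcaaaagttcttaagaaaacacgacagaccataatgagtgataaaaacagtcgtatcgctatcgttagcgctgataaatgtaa
TIF4631 (chromosome VII, 823809 to 824108, plus strand): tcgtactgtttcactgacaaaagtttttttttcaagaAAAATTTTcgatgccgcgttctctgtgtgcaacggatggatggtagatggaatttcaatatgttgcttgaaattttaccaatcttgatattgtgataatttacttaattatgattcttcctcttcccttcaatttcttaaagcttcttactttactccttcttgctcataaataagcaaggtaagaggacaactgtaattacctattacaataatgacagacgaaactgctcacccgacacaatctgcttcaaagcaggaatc
HEF3 (chromosome XIV, 606069 to 606368, plus strand): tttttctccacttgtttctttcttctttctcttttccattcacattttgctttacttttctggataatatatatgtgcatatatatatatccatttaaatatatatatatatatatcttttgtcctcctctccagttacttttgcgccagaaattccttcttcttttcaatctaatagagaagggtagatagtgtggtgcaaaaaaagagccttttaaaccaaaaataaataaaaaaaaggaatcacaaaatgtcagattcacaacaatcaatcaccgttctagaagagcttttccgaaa
*LIA1* held the RRPE core at 2 places, starting 193 and 154 bases before the start codon, and the PAC core at 142 bases. *RLI1* and *TIF4631* held the RRPE core once, at 185 and 213 bases, and none of the strings searched was in the window of *HEF3*. *EFM6*, whose window is not printed, was also lower on both scales (-1.79 with TMM and -1.38 with library totals, edgeR adjusted p = 0.00711 and 0.0495). It held no RRPE core, but the PAC core at 80 bases and the Rap1 form at 130 bases. *TIF3*, not printed either, was lower on both scales and held the RRPE core.

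Other genes around translation were described from 5 lists with 64 genes, of which 30 were lower, 5 higher and 29 did not pass, beside 19.1% lower and 18.8% higher over all genes tested. Of 15 enzymes that modify translation factors, 12 were lower and 0 higher, with a median log2 fold change of -0.74. Under other settings the count fell to 1 of 15 with library totals, 2 and 1 in limma at pseudocounts of 1 and 0.1, and 1 or 2 with a single *tho2Δ* library. *EFM3*, a methyltransferase of eEF2, and *JJJ3*, a co-chaperone of diphthamide synthesis on eEF2, were lower, at -1.70 and -1.44. Of 18 other cytosolic factors and partners, 9 were lower and 3 higher. After *ANB1*, *TMA46*, a partner of the ribosome-binding GTPase Rbg1, was the lowest gene that passed (-1.26), while *DBP1*, the weakly expressed paralog of *DED1*, and *NGR1*, an RNA-binding protein, were higher, at 1.38 and 0.97. *EAP1*, the other repressor of eIF4E, was higher (0.74), whereas *CAF20* was lower.

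Ribosome rescue and quality control genes did not pass in 7 of 7 cases, with a median of -0.15. Of 8 mitochondrial translation factor genes, *MEF2* was higher (log2 fold change 1.11) and 7 did not pass, with a median of 0.24. Of 16 biosynthetic genes that Gcn4 is known to activate, 9 were lower, including *HIS3*, which carries a deletion in both strains, and 1 was higher. *ARG1* and *CPA1*, of arginine synthesis, were lower, at -2.199 and -1.29, and *LYS1*, of lysine synthesis, was higher (0.74). With library totals, 4 of the 64 genes were lower and 5 higher, beside 5.14% and 20.5% of all genes, so that the lower share was close to that of all genes.

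How many of the 47 genes were called moved with the processing, and so did the share over all genes. With edgeR, the count of lower genes was 33 with size factors (19.4% of all genes), 33 with protein-coding genes alone (20.0%), 32 without a filter (17.1%) and 32 at a mean count of at least 50 (19.5%), and *HEF3* was the 1 higher gene each time (18.4%, 19.4%, 17.3% and 20.1% of all genes higher). DESeq2 called 41 lower (20.7%) and 1 higher (18.7%), and library totals 1 higher (20.5%). The limma test on TPM called 8 lower with a pseudocount of 1 (6.05%) and 8 with 0.1 (5.82%), and 0 higher (20.5% and 18.7%). Without WT replicate 3, 43 were lower (31.1%) and 2 higher (30.1%), and without WT replicate 4, 43 (27.5%) and 2 (26.7%). With either *tho2Δ* library alone, 0 were higher, beside 5.23% and 5.17% of all genes. With the replicate number as a block, 29 were lower (17.7%) and 1 higher (18.5%).

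**Figure D4:**
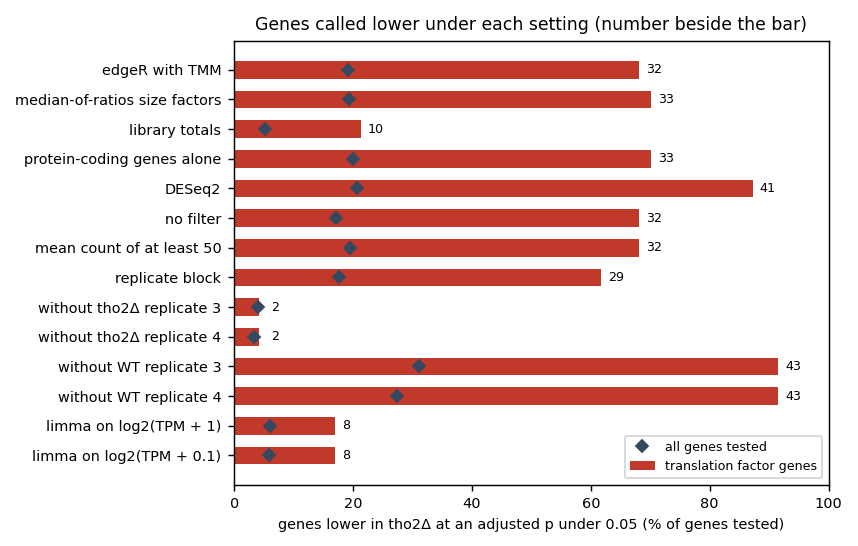
Percentage of the 47 translation factor genes (red bars, with the number of genes) and of all genes tested (blue diamonds) called lower in *tho2Δ* (adjusted p below 0.05) under each setting. The bars reach 32 genes with edgeR and TMM, 41 with DESeq2 and 10 with library totals, and fall to near the level of all genes (2 genes) with either *tho2Δ* library alone.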

How the data were processed

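Total RNA of *tho2Δ* and WT yeast was sequenced in 2 libraries each. The authors deposited 1 table for the series with raw counts, TPM (scaled by gene length to a common sum) and FPKM (scaled by gene length and library) per gene, and the 4 per-sample FPKM columns were not used. Build R64 and the tools StringTie 1.3.4d, HISAT2 2.1.0, bcl2fastq 2.20.0 and Trimmomatic come from the submitters' processing notes, without their roles. Since neither strand setting nor annotation is given in the sources used here, antisense reads cannot be told apart. The methods describe hot phenol extraction, and the labels an RNeasy kit. Empty lines (3 of the table) were skipped.

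For the tests, edgeR 4.0.16 under R 4.3.3 was run on the deposited counts (quasi-likelihood F, TMM, filterByExpr, genotype alone, Benjamini-Hochberg over 5890 genes at 0.05). The SE was taken as the size of the log2 fold change over the root of F. Alternatives were size factors, library totals, protein-coding genes alone, DESeq2 1.42.0, limma 3.58.1 on log2(TPM + 1) and log2(TPM + 0.1) with a mean TPM of at least 1, other count filters, a replicate block, each library left out and summed or omitted near-identical pairs. Copies were at least 95% identical over 50% of the length (BLAST 2.17.0). Leaving out each library for the paralog shares was added after the data were seen. The genes, steps, lists, strings and the rule for values in every library (the extremes of each step, paralogs and *GCN4*; up to 2 called genes each way per other list) were chosen with earlier results of these data known. *EAP1* and *HIS3* were named after their values were seen. On simulated counts for this comparison (5872 genes tested), edgeR called 64 of 65 genes changed 4-fold, 59 of 67 changed 2-fold and 16 of 67 changed 1.5-fold, with 3 false calls. The simulation changed few genes, in random directions, and gave both strains the same spread. In the data many more genes were called and the WT libraries stood further apart, so these rates may not hold for them. Sequences were read from the RefSeq genome of R64, to which 5995 of 6396 locus tags were matched. Plots were made in Python 3.11.15 with matplotlib 3.10.9.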

Additional observations from a re-analysis of the deposited data

How the results depend on the processing

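Most calls moved with the scaling or with the library left out. Of the 47 genes, library totals left 10 lower, and limma on TPM 8 at either pseudocount (1 or 0.1), with 0 higher, and 2 to 43 were lower and 0 to 2 higher with 1 library left out. Of the 64 other genes, library totals left 4 lower, limma 6 at a pseudocount of 1 and 5 at 0.1, and 6 to 44 were lower and 1 to 6 higher with 1 library left out. The counts of the 47 stayed within 1.5 times with size factors (33 lower), protein-coding genes alone (33), DESeq2 (41), a mean count minimum of 50 (32) or no filter (32). So did those with copies left out (31 of 41 genes) or summed (32 of 44 features). The summed set held *HYP2*+*ANB1*, which passed as lower and includes a gene outside the 47. The causes were not tested.

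The differences of replicate 4 from replicate 3 were not correlated between the strains (correlation 0.0015 over 5890 genes). With only 1 such difference per strain, this cannot show whether samples of the same number were handled together. With the replicate number as a block, 29 of the 47 genes were lower and 1 higher, and 31 and 5 of the 64. Over all genes, 17.7% were lower and 18.5% higher with that block.

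The summed pairs gained calls with DESeq2 (log2 fold changes of -0.65 for *TIF1*+*TIF2*, -1.25 for *TEF1*+*TEF2* and -1.18 for *EFT1*+*EFT2*) and with library totals (-0.70 for *TEF1*+*TEF2* and -0.65 for *EFT1*+*EFT2*), while *HYP2*+*ANB1* lost its call with library totals (-0.43). With 1 library left out, they ranged from -0.77 to -0.53 for *TIF1*+*TIF2*, -1.68 to -0.64 for *TEF1*+*TEF2*, -1.51 to -0.75 for *EFT1*+*EFT2* and -1.27 to -0.55 for *HYP2*+*ANB1*. The paralog shares, as *tho2Δ* minus WT with 1 library left out (added after the data were seen), ranged from -10.3 to -8.22 percentage points for *TIF4631*, -13.9 to -12.3 for *TEF4* and -0.232 to -0.178 for *YEF3*.

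Signs turned in 7 genes, of which *SUI2* and *GCD7* had passed as lower. On library totals, then in limma at a pseudocount of 1 and at 0.1, the log2 fold changes were 0.14, 0.079 and 0.084 for *TIF4632*, 0.15, 0.16 and 0.16 for *SUI1*, 0.094, 0.054 and 0.054 for *SUI2*, 0.043, 0.015 and 0.016 for *GCD7*, 0.39, 0.41 and 0.42 for *GCD1*. *GCD1* also turned at a mean count of at least 50 (0.0034) and with the replicate block (0.017), and *GCN2* with size factors (-0.0079) and DESeq2 (-0.0079). With 1 library left out, values ranged from -0.26 to 0.27 for *GCD1*, -0.29 to 0.37 for *CAM1* and -0.062 to 0.047 for *GCN2*.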
